A study of Mus musculus with 16 samples.

Results

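The 9 genes described here carry the adrenergic signal of the heart from its receptors to their shut-off: the alpha-1 receptor genes Adra1a, Adra1b and Adra1d, the beta-1 receptor gene Adrb1, the adenylyl cyclase genes Adcy5 and Adcy6, the receptor kinase gene Grk5 and the beta-arrestin genes Arrb1 and Arrb2. They were taken by symbol from the 54108 named rows of a gene count table, and all 9 have a row and passed the filter on low counts. The table holds RNA of heart ventricles from 8-week-old mice. The cardiac knockout (cKO) libraries come from mice with the genotype Myh6-Cre, Rbpms fl/fl, and the control libraries come from Rbpms fl/fl mice without Cre, so the floxed allele is shared by all animals and a Cre-only group is not part of the comparison. Each genotype has 4 libraries, of which replicate 3 is from a female and the other 3 are from males, with 20190334 to 24540433 counts per library. Myh6-Cre acts in cardiomyocytes, while the ventricle also holds fibroblasts, vessel cells, nerves and macrophages, and bulk RNA sums over them. The labels do not say whether tissue of several animals was pooled, so the p-values reflect library-to-library spread. Newborn ventricles of the series were not analysed here.

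Noradrenaline from sympathetic nerves and adrenaline from the blood act on the ventricle through these receptors. The beta-1 receptor couples to the stimulatory G protein, which activates adenylyl cyclases 5 and 6, the main cyclase forms of cardiomyocytes; the cyclic AMP they make activates protein kinase A, which raises the force and speed of contraction and relaxation. Alpha-1 receptors couple to Gq and phospholipase C, and in cardiomyocytes they are known for roles in growth and survival. G-protein-coupled receptor kinases such as GRK5 phosphorylate agonist-bound receptors, beta-arrestins then bind them, and signalling to the G protein stops. Lower receptor number with higher receptor kinase activity is a well-known feature of failing hearts, stated here as background only.

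Receptor mRNAs were lower and Grk5 and Arrb1 mRNAs were higher in cKO ventricles. Of the 9 genes, 5 fell (Adra1a, Adra1b, Adra1d, Adrb1 and Adcy5), 2 rose (Grk5 and Arrb1), and Adcy6 and Arrb2 did not pass. Calls are from the quasi-likelihood test of edgeR, with p-values adjusted over all 16051 genes tested and a threshold of 0.05. Over all tested genes, 9.64% were called lower and 9.64% were called higher in cKO, 19.3% in either direction. Higher genes made up 50.0% of all calls, and 66.1% when libraries were scaled by total counts alone; the same 7 of the 9 genes were called in the same directions by that scaling too. In 7 of the 9 genes the cKO and control libraries did not overlap in CPM (read counts scaled to the effective library size), against 23.5% of all tested genes. The median log2 fold change of the 9 genes was -0.42, and that of all tested genes was 0.01. Rbpms itself, the targeted gene, ran from 26.9 to 38.8 CPM in cKO libraries and from 102 to 193 CPM in controls, so every library matched its genotype label.

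**Figure D1:**
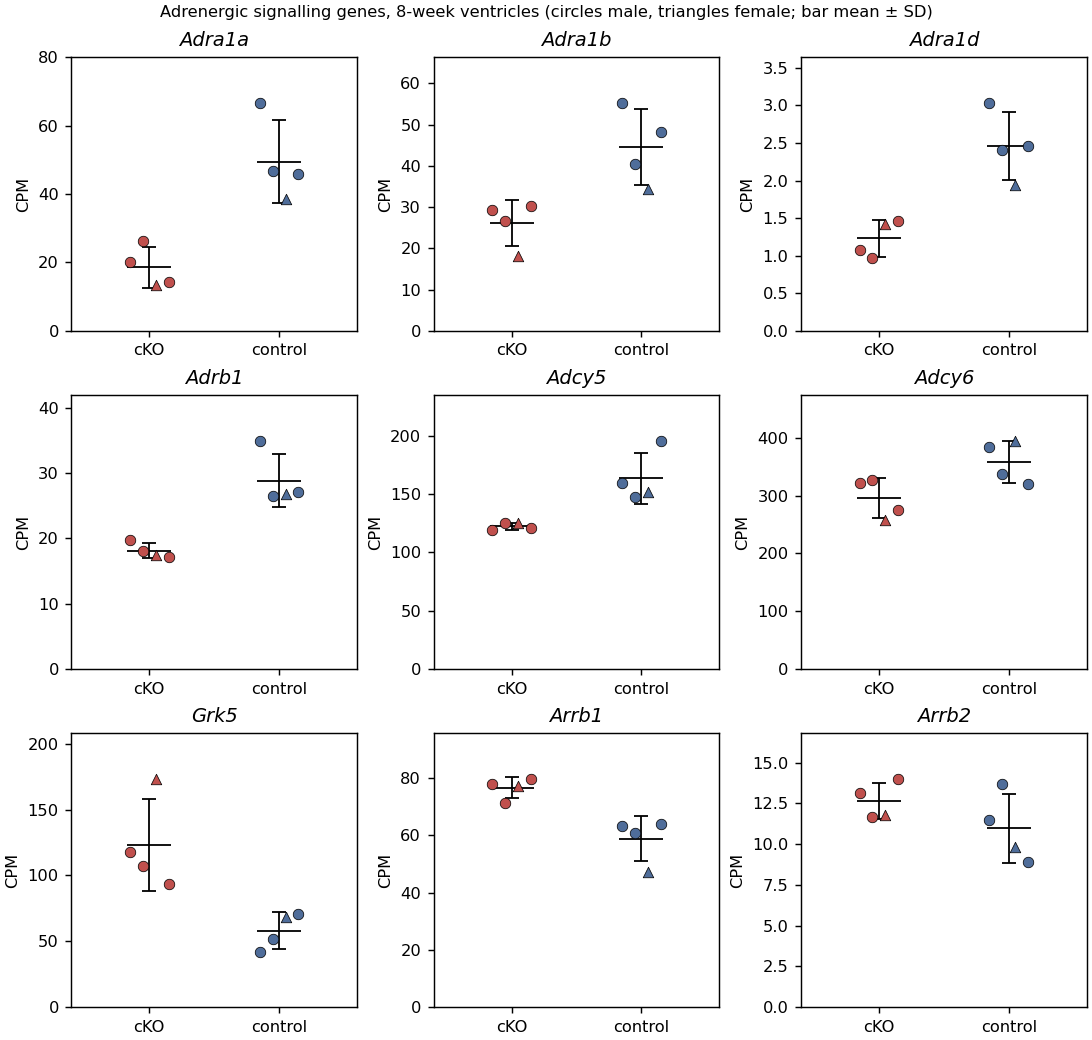
CPM of each of the 9 genes (vertical axis from 0) in the 4 cKO libraries (left of each panel) and the 4 control libraries (right), with circles for males, triangles for females and a bar for the mean ± SD. The 4 receptor genes and Adcy5 are lower in all cKO libraries than in any control library, Grk5 and Arrb1 are higher in all of them, and Adcy6 and Arrb2 overlap.

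Among the receptors, Adra1a fell furthest. Adra1a (chromosome 14, 66635251 to 66771168 in GRCm38, plus strand) encodes the alpha-1A receptor, one of the 2 alpha-1 forms of mouse cardiomyocytes. Adra1a measured 20.1, 26.2, 13.5 and 14.4 CPM in cKO replicates 1 to 4, against 66.7, 46.6, 38.7 and 45.9 CPM in control replicates 1 to 4. The highest cKO library lay below the lowest control library, and control replicate 1 stood above the other controls. The mean was 18.6 ± 5.90 CPM in cKO against 49.5 ± 12.0 CPM in control ventricles (SD, n = 4 per genotype), a 2.67-fold lower level (log2 fold change -1.42 ± 0.22 SE, adjusted p = 8.89e-04 by edgeR). This change exceeded in size that of 97.5% of all tested genes.

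Adra1b (chromosome 11, 43774606 to 43901210, minus strand) encodes the alpha-1B receptor, the other cardiomyocyte form. It measured 29.4, 26.7, 18.2 and 30.2 CPM in cKO replicates 1 to 4, against 55.3, 40.4, 34.4 and 48.1 CPM in control replicates 1 to 4. All cKO libraries were below all controls, and the female library was the lowest of each genotype. Adra1b was 1.70-fold lower in cKO (log2 fold change -0.77 ± 0.17 SE, adjusted p = 0.00873). Adra1d (chromosome 2, 131545850 to 131562283, minus strand), the alpha-1D receptor gene that is best known from arterial smooth muscle, was scarce in both genotypes, with 26, 22, 36 and 34 reads in cKO libraries, against 67, 49, 46 and 47 reads in controls. In CPM it measured 1.08, 0.967, 1.42 and 1.46 CPM in cKO replicates 1 to 4, against 3.04, 2.40, 1.94 and 2.46 CPM in control replicates 1 to 4, so the groups did not overlap at this low level. Its fitted level was 1.99-fold lower (log2 fold change -0.99 ± 0.24 SE, adjusted p = 0.0142). An annotated antisense transcript shares 147 exonic bases with Adra1d, and it had no counts in any library.

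Adrb1 (chromosome 19, 56722199 to 56733113, plus strand) encodes the beta-1 receptor, the main beta receptor of ventricular cardiomyocytes. It measured 19.8, 18.1, 17.4 and 17.2 CPM in cKO replicates 1 to 4, against 35.0, 26.6, 26.8 and 27.2 CPM in control replicates 1 to 4. The cKO values lay close together, and control replicate 1 was set apart above 3 near-equal controls. Adrb1 was 1.59-fold lower in cKO (log2 fold change -0.67 ± 0.11 SE, adjusted p = 0.00113), and without control replicate 1 the log2 fold change was -0.57 (adjusted p = 0.00221).

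Adra1a made up a smaller share of the 4 receptor mRNAs in cKO libraries, by a narrow margin between the nearest libraries. Per exonic length, Adra1a made up 10.0% to 17.9% of the 4 receptor mRNAs in cKO libraries and 18.3% to 21.3% in controls, with no overlap. On the plain count scale, which favours long transcripts, the Adra1a share was 22.8% to 36.4% in cKO and 37.1% to 41.7% in controls, again without overlap. The per-length share of Adrb1 was 30.9% to 40.2% in cKO and 27.9% to 33.7% in controls, which overlapped. Within the alpha-1 receptors alone, the Adra1a share overlapped on both scales. Per length it was 14.5% to 26.3% in cKO and 25.3% to 29.9% in controls. Adra1b took 69.2% to 78.7% of the alpha-1 receptors in cKO and 63.9% to 68.5% in controls per length. These Adra1b groups did not overlap on this scale but did on the count scale. These shares are descriptions with no test, and they depend on the GENCODE exon lengths, since the isoforms expressed here were not resolved.

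**Figure D2:**
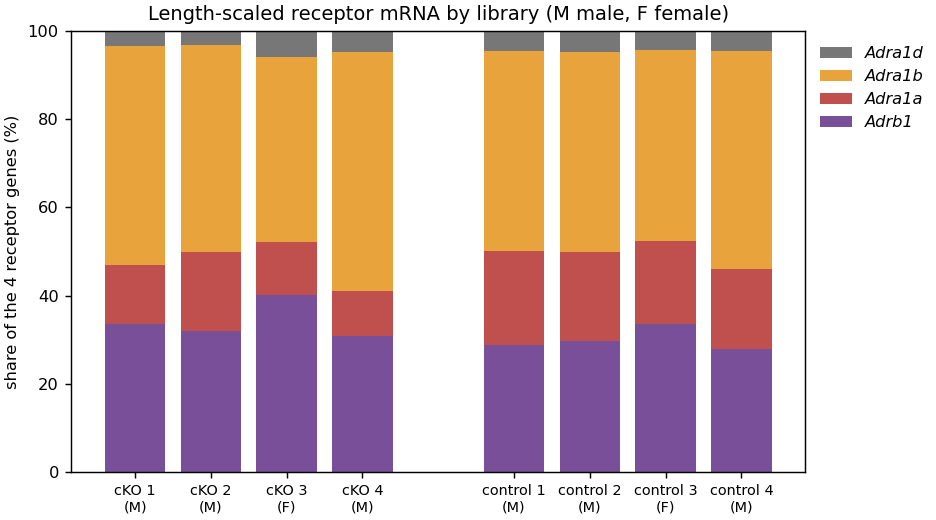
Share (%) of each receptor gene in the summed length-scaled level of Adrb1, Adra1a, Adra1b and Adra1d, 1 stacked bar per library, cKO libraries on the left and controls on the right, with M for male and F for female. The Adra1a segment is smaller in each cKO bar than in any control bar.

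Adcy5 (chromosome 16, 35154877 to 35305738, plus strand) encodes adenylyl cyclase 5, which makes cyclic AMP when the stimulatory G protein binds it. Adcy5 measured 119, 125, 125 and 121 CPM in cKO replicates 1 to 4, against 159.5, 147, 152 and 196 CPM in control replicates 1 to 4. The cKO libraries spanned a narrow range below all controls, and control replicate 4 was the highest of the 8 libraries. It was 1.34-fold lower in cKO (log2 fold change -0.42 ± 0.09 SE, adjusted p = 0.00828).

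Adcy6 (chromosome 15, 98589973 to 98610076, minus strand), the other main cardiac cyclase and the more abundant of the pair here, measured 321, 327, 257 and 275 CPM in cKO replicates 1 to 4, against 384, 337, 395 and 319 CPM in control replicates 1 to 4. The groups overlapped, since cKO replicates 1 and 2 exceeded control replicate 4. Adcy6 missed the threshold (log2 fold change -0.28, 95% interval -0.48 to -0.08, adjusted p = 0.0792), and it passed with DESeq2 (adjusted p = 0.0398) and with no filter on low counts (0.0473). An antisense transcript annotated over 605 of its exonic bases had no counts. The share of Adcy5 in the per-length sum of the pair was 25.9% to 31.4% in cKO and 26.6% to 36.6% in controls, which overlapped. Whether the 2 cyclases changed by different amounts was not tested.

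Grk5 (chromosome 19, 60889749 to 61095968, plus strand) encodes a receptor kinase that is abundant in heart and, unlike its relative GRK2, is held at the membrane without G protein beta-gamma subunits. Grk5 measured 118, 107, 173 and 93.4 CPM in cKO replicates 1 to 4, against 41.6, 51.6, 68.7 and 70.3 CPM in control replicates 1 to 4. Every cKO library exceeded every control, and the female cKO library was the highest. The mean was 123 ± 35.1 CPM in cKO against 58.1 ± 13.8 CPM in control ventricles (SD, n = 4 per genotype), a 2.12-fold higher level (log2 fold change 1.08 ± 0.20 SE, adjusted p = 0.00314). It was the larger of the 2 rises, beyond the change in 94.8% of all tested genes.

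Arrb1 (chromosome 7, 99535466 to 99606771, plus strand) encodes beta-arrestin 1, which binds phosphorylated receptors. It measured 78.0, 71.3, 77.3 and 79.8 CPM in cKO replicates 1 to 4, against 63.3, 60.8, 47.2 and 64.0 CPM in control replicates 1 to 4. The cKO libraries were above all controls, and the female control was the lowest library. Arrb1 was 1.30-fold higher (log2 fold change 0.38 ± 0.10 SE, adjusted p = 0.0181), and without cKO replicate 1 it just missed the threshold (log2 fold change 0.37, adjusted p = 0.0533), which leaves Grk5 as the 1 gene of the 9 called higher in that fit. Arrb2 (chromosome 11, 70432635 to 70440828, plus strand), beta-arrestin 2, measured 13.1, 11.6, 11.8 and 14.0 CPM in cKO replicates 1 to 4, against 11.5, 13.7, 9.81 and 8.88 CPM in control replicates 1 to 4. Its groups overlapped and it did not pass (log2 fold change 0.20, 95% interval -0.07 to 0.48, adjusted p = 0.365), so a rise like that of Arrb1 lies within its interval. Per length, Arrb1 made up 59.2% to 62.5% of the arrestin pair in cKO and 53.0% to 64.7% in controls.

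**Figure D3:**
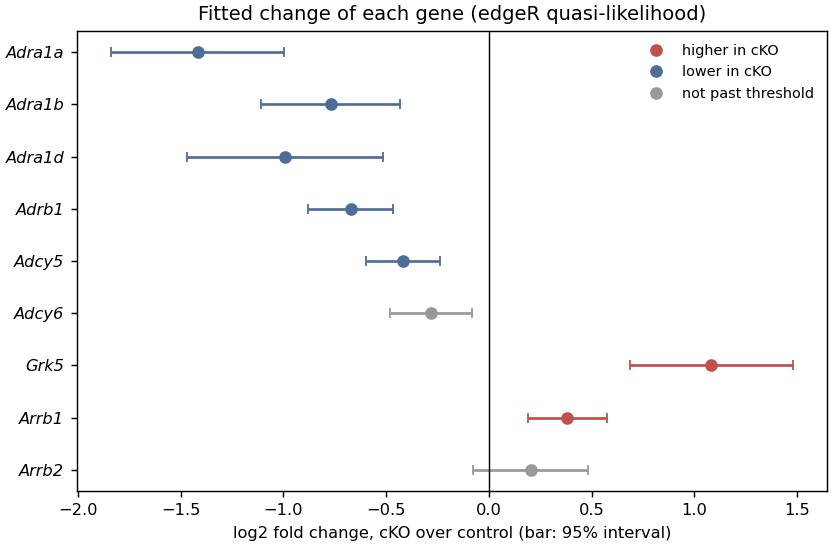
Fitted log2 fold change of each gene, cKO over control (horizontal axis), with its unadjusted, approximate 95% interval (estimate ± 1.96 SE), which is narrower than the F test implies. The receptor genes and Adcy5 lie below 0 and Grk5 and Arrb1 above it; the Adcy6 interval also ends below 0, although its p adjusted over all genes missed the threshold.

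Scaled to exonic length (CPM per kilobase, mean ± SD, n = 4), the order of the 9 genes differed between genotypes. In cKO ventricles Adcy6 came first with 43.5 ± 5.06, followed by Grk5 with 17.4 ± 4.97 and Adcy5 with 17.0 ± 0.423, a pair whose libraries overlapped. Then came Adra1b (7.73 ± 1.62) and Arrb1 (6.85 ± 0.329), which also overlapped, then Adrb1 (5.36 ± 0.346), Arrb2 (4.44 ± 0.397), Adra1a (2.13 ± 0.675) and Adra1d (0.649 ± 0.130). In control ventricles the order was Adcy6 (52.9 ± 5.36), Adcy5 (22.8 ± 3.07), Adra1b (13.2 ± 2.70), Adrb1 (8.54 ± 1.21), Grk5 (8.23 ± 1.96), Adra1a (5.67 ± 1.38), Arrb1 (5.26 ± 0.703), Arrb2 (3.86 ± 0.745) and Adra1d (1.29 ± 0.237). From Adra1b down to Arrb2, each neighbour in the control order overlapped the next. By these means, Grk5 ranked above Adcy5 and the receptors in cKO but below Adcy5, Adra1b and Adrb1 in control ventricles. Adra1a ranked below both arrestin genes in cKO but above them in controls. Single libraries overlapped for Grk5 and Adcy5 in cKO, and in controls for Grk5 and Adrb1 and for Adra1a and both arrestin genes.

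The bases before the transcription start of 4 of the 9 genes are in the RefSeq promoter table of GRCm38.p6. They are shown because Adra1b, Adrb1 and Adcy5 fell together while Grk5 rose, so that the letters before their starts can be compared. Each run is the 250 bases before a start, written 5′ to 3′ on the gene's strand. Adra1b has 2 starts, at chr11:43901238-43901487 (distal) and chr11:43836490-43836739 (proximal) on the minus strand; Adrb1 is at chr19:56721867-56722116, Adcy5 at chr16:35154614-35154863 and Grk5 at chr19:60889499-60889748, all on the plus strand. Capitals mark any match, on either strand, to TGACG (the core of the cyclic AMP response element), CATTCC (known for TEAD factors), AGATAA (known for erythroid and cardiac zinc-finger factors of the GATA family) or CACGTG (the E-box).
Adra1b distal: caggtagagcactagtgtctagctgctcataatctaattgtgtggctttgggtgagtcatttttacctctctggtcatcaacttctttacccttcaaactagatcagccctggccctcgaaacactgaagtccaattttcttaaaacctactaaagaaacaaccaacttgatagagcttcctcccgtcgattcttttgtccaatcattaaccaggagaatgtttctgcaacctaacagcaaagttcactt
Adra1b proximal: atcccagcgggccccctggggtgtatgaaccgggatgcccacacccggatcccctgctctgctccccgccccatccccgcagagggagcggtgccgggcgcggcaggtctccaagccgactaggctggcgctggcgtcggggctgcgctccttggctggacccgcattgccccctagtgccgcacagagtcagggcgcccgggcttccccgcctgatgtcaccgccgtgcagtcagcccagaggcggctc
Adrb1: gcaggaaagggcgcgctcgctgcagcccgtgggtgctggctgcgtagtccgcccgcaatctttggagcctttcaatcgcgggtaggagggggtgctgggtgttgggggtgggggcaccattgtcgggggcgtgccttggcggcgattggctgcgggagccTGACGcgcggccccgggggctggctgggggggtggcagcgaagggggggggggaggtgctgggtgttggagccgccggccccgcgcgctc
Adcy5: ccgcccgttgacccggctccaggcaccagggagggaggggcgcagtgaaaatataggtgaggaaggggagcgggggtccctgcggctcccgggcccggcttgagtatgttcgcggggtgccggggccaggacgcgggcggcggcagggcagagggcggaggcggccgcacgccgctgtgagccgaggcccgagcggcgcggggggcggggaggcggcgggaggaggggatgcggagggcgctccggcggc
Grk5: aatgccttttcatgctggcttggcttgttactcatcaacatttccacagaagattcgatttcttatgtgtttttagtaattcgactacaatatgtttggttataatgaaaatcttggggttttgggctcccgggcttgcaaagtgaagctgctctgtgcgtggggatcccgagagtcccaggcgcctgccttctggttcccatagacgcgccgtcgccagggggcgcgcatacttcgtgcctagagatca

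Adrb1 alone among the 5 promoters held a match, a TGACG that begins 90 bases before the start. TGACG occurs on either strand in 17.8% of the 32851 promoters of the table, CATTCC in 12.6%, AGATAA in 9.99% and CACGTG in 6.02%. The proximal Adra1b, Adrb1 and Adcy5 promoters were rich in G and C, with 72.8%, 74.0% and 78.0% and with 22, 24 and 32 CG dinucleotides. The Grk5 promoter had 49.6% G and C with 13 CG dinucleotides, and the distal Adra1b promoter 41.6% with 3, against medians of 52.4% and 6 over all promoters. A match is a run of letters and was not tested as a binding site.

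Each of the 7 called genes was also called in the 6 male libraries alone, and in each the female pair differed in the same direction. Adra1a averaged 20.2 CPM in cKO and 53.1 CPM in control males (n = 3 each), and 13.5 CPM in the cKO female against 38.7 CPM in the control female. Grk5 averaged 106 CPM in cKO and 54.5 CPM in control males (n = 3 each), and 173 CPM in the cKO female against 68.7 CPM in the control female. Arrb1 averaged 76.3 CPM in cKO and 62.7 CPM in control males (n = 3 each), and 77.3 CPM in the cKO female against 47.2 CPM in the control female, the widest gap between the sexes in the fitted change relative to its error (male minus female log2 difference -0.43, unadjusted p = 0.0253 by edgeR, adjusted p = 0.860). For Adcy6 that difference was 0.45 (unadjusted p = 0.0553, adjusted p = 0.913). With edgeR, 0 of 16051 genes passed this test of sex by genotype and 880 had an unadjusted p under 0.05; with 1 female per genotype it assumes that females vary as males do.

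The receptor and cyclase changes came beside shifts in some markers of ventricular cells, most clearly those of fibroblasts. The share of markers called is to be set against the 19.3% of all tested genes. The fibroblast list stood far above that share. The neuron and Schwann cell list and the smooth muscle and pericyte list stood above it by less. The cardiomyocyte, endothelial and macrophage lists were near it. All 12 fibroblast markers rose, including Col1a1 and Pdgfra, and their summed level was 5567 to 6480.2 CPM in cKO and 2651 to 3581 CPM in control libraries. Of 12 cardiomyocyte markers 3 fell and 0 rose with a median log2 fold change of -0.21. Their sums overlapped, at 42379 to 51287 CPM in cKO and 49926 to 65399 CPM in control libraries. The smooth muscle and pericyte markers had 1 higher and 4 lower of 12. With any 1 library left out, 0 to 3 of them were higher and 2 to 4 lower. Their sum was 1989.6 to 2377 CPM in cKO and 2668 to 2993 CPM in control libraries. The gap in this sum rests largely on Abcc9, with 474 to 518 CPM in cKO and 889 to 1186 CPM in control libraries. Rgs5 averaged 1038 CPM in cKO and 1027 CPM in control libraries. The endothelial markers had 1 higher and 2 lower of 12, and 0 to 1 higher and 0 to 1 lower with any 1 library left out. Their sums overlapped, at 1440.4 to 1697 CPM in cKO and 1603 to 1897 CPM in control libraries. The macrophage markers had 3 higher and 0 lower of 12 (352 to 406 CPM in cKO and 221 to 343 CPM in control libraries), and the neuron and Schwann cell markers 4 higher and 1 lower of 9 tested (47.7 to 74.2 CPM in cKO and 24.9 to 34.3 CPM in control libraries). None of the 72 listed markers was at 0 in all libraries, and the nerve and glial markers Th, Prph and Gfap were below the filter. In bulk tissue, fewer cells of a type and less of an mRNA per cell cannot be told apart, and the part of these marker shifts in the 9 genes was not tested. The 3 called cardiomyocyte markers had log2 fold changes of -0.81 (Ckm), -0.68 (Ryr2) and -0.47 (Tnni3). The uncalled ones ran from -0.34 (Myh6) to 0.05 (Mb). Adra1b (-0.77), Adrb1 (-0.67) and Adcy5 (-0.42) lay below all the uncalled markers but not below Ckm. Adra1a (-1.42) and Adra1d (-0.99) lay below Ckm as well. Fibroblast markers ran from 0.62 (Gsn) to 2.03 (Mfap4) with a median of 1.15. Grk5 (1.08) lay within that range and Arrb1 (0.38) lay below it. These positions are descriptions with no test.

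Among 127 other tested genes of the pathway, 29 fell and 13 rose, 33.1% against 19.3% of all tested genes. Their median log2 fold change was -0.05, and 0.03 with total counts as the only scaling. Among the other adrenergic receptors, 0 of 3 tested were called by edgeR; 1 had an unadjusted p under 0.05, 1 passed with DESeq2 and 0 with limma-voom. That gene was Adra2b, named after its value was seen, an alpha-2 receptor with 0.982 ± 0.231 CPM in cKO and 1.85 ± 0.518 CPM in control ventricles (adjusted p = 0.0501, and 0.0352 to 0.137 over the alternatives). Levels of pathway genes are given as mean ± SD over 4 libraries per genotype. The share called in each longer list below is to be set against the 19.3% of all tested genes. For lists of 4 tested genes only counts are given, since so few genes cannot be compared with that share.

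Of 7 other adenylyl cyclases tested, 1 rose and 2 fell (42.9% called, median 0.39, 0.05 to 0.51 over the alternatives). Adcy7, a cyclase known from blood cells, went against Adcy5. Adcy7 averaged 61.0 ± 7.65 CPM in cKO against 25.2 ± 3.17 CPM in control ventricles (log2 fold change 1.27 ± 0.12 SE, adjusted p = 4.82e-05), 2.42-fold higher. Adcy9 averaged 32.9 ± 2.09 CPM in cKO against 49.4 ± 3.21 CPM in control ventricles (log2 fold change -0.59 ± 0.08 SE, adjusted p = 5.40e-04); it is a widely expressed cyclase. Adcy8, a calcium-stimulated form, was scarce and fell, with 0.483 ± 0.0916 CPM in cKO against 1.47 ± 0.483 CPM in control ventricles (log2 fold change -1.60 ± 0.32 SE, adjusted p = 0.00468). Of 4 other receptor kinases, 1 fell and 0 rose (median -0.08, -0.14 to 0.03 over the alternatives). Grk3 averaged 17.8 ± 1.71 CPM in cKO against 28.7 ± 6.21 CPM in control ventricles (log2 fold change -0.69 ± 0.15 SE, adjusted p = 0.00676); it is a relative of GRK2 that beta-gamma subunits recruit. Grk2, the other main cardiac kinase, named after its value was seen, averaged 74.8 ± 4.75 CPM in cKO against 80.7 ± 6.72 CPM in control ventricles and did not pass (log2 fold change -0.11, adjusted p = 0.403), while Grk5 rose.

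Between receptor and cyclase, 2 of 23 G protein subunit genes rose and 2 fell (median 0.00, -0.03 to 0.08 over the alternatives). This was 17.4% called, no more than the 19.3% of all tested genes. Gnao1 averaged 124 ± 8.12 CPM in cKO against 51.3 ± 9.83 CPM in control ventricles (log2 fold change 1.27 ± 0.13 SE, adjusted p = 8.41e-05); it encodes Go alpha, an inhibitory-class subunit. Gnb5 averaged 17.6 ± 2.01 CPM in cKO against 30.6 ± 1.95 CPM in control ventricles (log2 fold change -0.80 ± 0.10 SE, adjusted p = 2.64e-04); its product pairs with RGS proteins of the R7 family. Gna12 averaged 95.1 ± 6.80 CPM in cKO against 134 ± 11.5 CPM in control ventricles (log2 fold change -0.50 ± 0.08 SE, adjusted p = 0.00177); it encodes the alpha subunit of G12. Gng2, a gamma subunit gene, had a log2 fold change of 0.51 (adjusted p = 0.0306) and lost its call when control replicate 3 or 4, or cKO replicate 1, 2 or 4, was left out (adjusted p = 0.0588 to 0.0856). RGS proteins speed the shut-off of G proteins, and of 14 tested 1 rose and 2 fell (median -0.08, -0.09 to 0.07 over the alternatives). This was 21.4% called, near the share of all tested genes. Rgs6 averaged 32.9 ± 5.90 CPM in cKO against 55.5 ± 4.70 CPM in control ventricles (log2 fold change -0.75 ± 0.12 SE, adjusted p = 0.00130); it is an R7 member that restrains muscarinic signalling in the heart. Rgs2 averaged 60.0 ± 8.01 CPM in cKO against 87.0 ± 7.23 CPM in control ventricles (log2 fold change -0.54 ± 0.10 SE, adjusted p = 0.00339); it acts on Gq, the partner of alpha-1 receptors. Rgs11 was scarce and rose 5.37-fold, with 2.11 ± 0.773 CPM in cKO against 0.391 ± 0.202 CPM in control ventricles (adjusted p = 0.00142).

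Downstream of cyclic AMP, 4 of 19 genes for protein kinase A, its anchors and its inhibitors rose and 3 fell (36.8% called, median -0.07, -0.09 to 0.01 over the alternatives). When control replicate 1 or control replicate 2 was left out, 2 rose. DESeq2 called 5 higher and 6 lower, sex as covariate gave 4 higher and 6 lower, and scaling by total counts alone gave 6 higher and 2 lower. Akap13 averaged 363 ± 24.1 CPM in cKO against 273 ± 23.8 CPM in control ventricles (log2 fold change 0.41 ± 0.08 SE, adjusted p = 0.00561); it encodes an anchoring protein of the kinase. Akap7 averaged 41.2 ± 2.22 CPM in cKO against 56.1 ± 5.02 CPM in control ventricles (log2 fold change -0.44 ± 0.08 SE, adjusted p = 0.00317); it anchors the kinase near calcium channels and phospholamban. The inhibitor gene Pkia averaged 289 ± 24.5 CPM in cKO against 389 ± 48.8 CPM in control ventricles (log2 fold change -0.43 ± 0.10 SE, adjusted p = 0.00984), and its relative Pkib averaged 2.56 ± 0.212 CPM in cKO against 1.06 ± 0.224 CPM in control ventricles (log2 fold change 1.28 ± 0.23 SE, adjusted p = 0.00263). Of 18 cyclic AMP effectors and phosphodiesterases, 2 rose and 6 fell (44.4% called, median -0.15, -0.18 to -0.07 over the alternatives). Pde4a averaged 70.0 ± 6.48 CPM in cKO against 117 ± 17.3 CPM in control ventricles (log2 fold change -0.74 ± 0.11 SE, adjusted p = 8.27e-04), and Pde3a averaged 172 ± 14.8 CPM in cKO against 249 ± 15.2 CPM in control ventricles (log2 fold change -0.54 ± 0.08 SE, adjusted p = 0.00103); both enzymes break down cyclic AMP. The Popeye proteins bind cyclic AMP, and Popdc3 averaged 35.5 ± 4.53 CPM in cKO against 21.4 ± 2.08 CPM in control ventricles (log2 fold change 0.73 ± 0.11 SE, adjusted p = 7.76e-04) while Popdc2 averaged 349.7 ± 13.8 CPM in cKO against 489.7 ± 48.0 CPM in control ventricles (log2 fold change -0.49 ± 0.08 SE, adjusted p = 0.00214).

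Among 11 targets of protein kinase A in contraction, 5 fell and 0 rose with all libraries (45.5% called) and when any 1 library was left out (median -0.21, -0.44 to -0.13 over the alternatives). Cacnb2 averaged 83.6 ± 7.73 CPM in cKO against 145 ± 17.9 CPM in control ventricles (log2 fold change -0.80 ± 0.10 SE, adjusted p = 3.23e-04); it encodes a subunit of the L-type calcium channel. Kcnq1 averaged 35.0 ± 1.02 CPM in cKO against 53.0 ± 4.74 CPM in control ventricles (log2 fold change -0.60 ± 0.08 SE, adjusted p = 4.82e-04); it encodes the channel of the slow delayed rectifier current. Ryr2, the calcium release channel, and Tnni3, cardiac troponin I, also fell, with log2 fold changes of -0.68 and -0.47 (adjusted p = 0.00114 and 0.00288 by edgeR); both are also among the cardiomyocyte markers above. Of 15 tested effectors of alpha-1 receptors, 3 fell and 0 rose (median 0.03, -0.04 to 0.12 over the alternatives), and 2 rose with total counts as the only scaling. The share of these effectors called in the main test was near the 19.3% of all tested genes. Prkce averaged 59.5 ± 2.05 CPM in cKO against 79.6 ± 2.55 CPM in control ventricles (log2 fold change -0.42 ± 0.07 SE, adjusted p = 0.00112); it encodes protein kinase C epsilon. Prkcq averaged 2.80 ± 0.592 CPM in cKO against 6.29 ± 1.02 CPM in control ventricles (log2 fold change -1.17 ± 0.20 SE, adjusted p = 0.00170); it encodes protein kinase C theta. Prkd1, protein kinase D1, had a log2 fold change of -0.69 (adjusted p = 0.0206) and lost its call when control replicate 3, or cKO replicate 2, 3 or 4, was left out (adjusted p = 0.0506 to 0.0563) and in males alone (adjusted p = 0.101).

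Genes that make, take up or break down catecholamines went both ways, with 3 of 9 tested higher and 4 lower (77.8% called, median -0.43, -0.71 to -0.06 over the alternatives). Slc22a3 averaged 1.90 ± 0.149 CPM in cKO against 9.50 ± 2.25 CPM in control ventricles (log2 fold change -2.32 ± 0.19 SE, adjusted p = 2.95e-05); it encodes a transporter that takes monoamines into non-neuronal cells. Maob averaged 15.2 ± 5.13 CPM in cKO against 65.5 ± 13.4 CPM in control ventricles (log2 fold change -2.11 ± 0.23 SE, adjusted p = 1.45e-04), 4.31-fold lower; it encodes monoamine oxidase B, which breaks down monoamines. Dbh, the enzyme that makes noradrenaline, was scarce and fell, with 0.730 ± 0.128 CPM in cKO against 3.41 ± 0.711 CPM in control ventricles (log2 fold change -2.21 ± 0.25 SE, adjusted p = 1.67e-04). Dbh is also the 1 lower gene among the neuron and Schwann cell markers above, of which 4 rose. Chrm2, the muscarinic receptor that opposes beta-1 signalling, was the 1 of 4 opposing receptors that fell (261 ± 16.9 CPM in cKO against 339.5 ± 31.0 CPM in control ventricles, log2 fold change -0.38 ± 0.09 SE, adjusted p = 0.00960), and it missed the threshold in males alone (adjusted p = 0.0613).

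**Figure D4:**
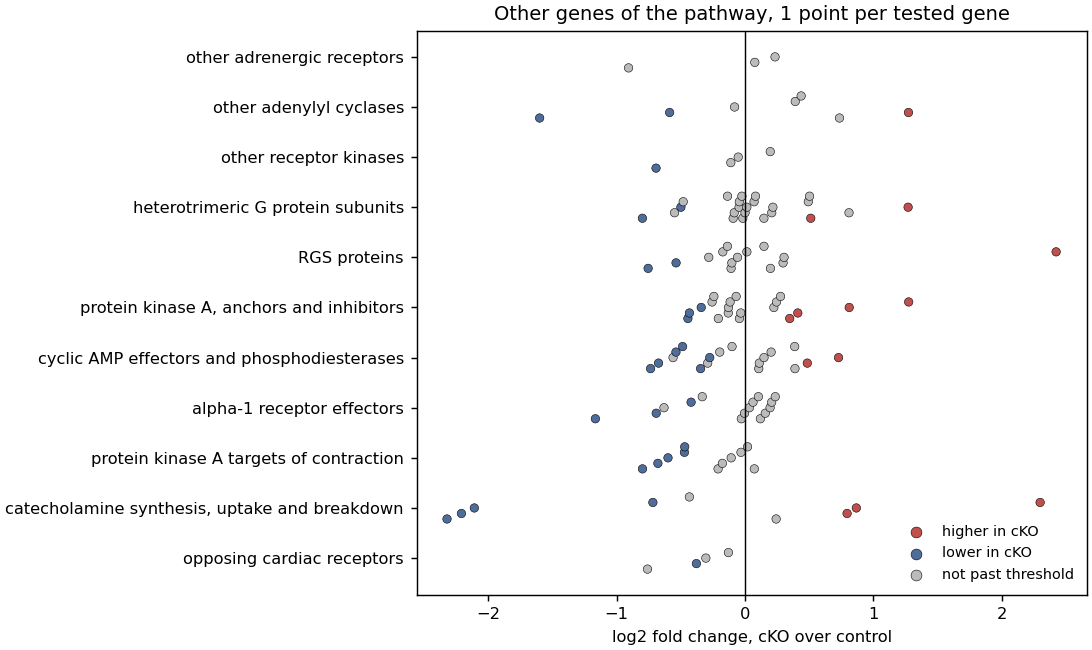
Log2 fold change, cKO over control (horizontal axis), of the other tested genes of the pathway, 1 point per gene and 1 row per list, coloured by call at an adjusted p under 0.05. The protein kinase A targets hold 5 lower and 0 higher calls, and catecholamine genes hold 3 higher and 4 lower calls and reach furthest below 0.

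For each called gene, the pattern most like its own was sought among 14025 other genes with a mean of at least 1 CPM, as the root mean square difference in centred log2 CPM over the 8 libraries. The genes nearest to Adra1a were 4633401B06Rik (root mean square difference 0.194) and Whrn (0.194), against a median of 0.816 over all genes compared. The nearest to Adra1b were Rbpms2 (root mean square difference 0.113) and Epb41l4a (0.134), against a median of 0.513; Rbpms2 is the paralog of the deleted gene. The nearest to Adra1d were Gnb5 (root mean square difference 0.155) and Lclat1 (0.164), the nearest named here to Adrb1 was Snrpn (root mean square difference 0.0705), and those to Adcy5 were Ubl7 (root mean square difference 0.0379) and Gpr89 (0.0501), against medians of 0.560, 0.404 and 0.309. The nearest named here to Grk5 was Ier5 (root mean square difference 0.141), and those to Arrb1 were Pea15a (root mean square difference 0.0536) and Wipf1 (0.0576), against medians of 0.658 and 0.314. Among the 9 genes themselves, the most alike pair was Arrb1 with Arrb2 (0.212) and the least alike Adra1a with Grk5 (1.38). Adrb1 with Adcy5 (0.219) and Adcy5 with Adcy6 (0.222) were nearly as close as the arrestin pair. The distance includes the genotype change itself, so a large fall and a large rise lie far apart by construction. These distances describe 8 libraries that share a genotype contrast and carry no test.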

How the data were processed

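Per the labels' protocols, libraries were stranded and made from polyadenylated RNA; the series text describes paired-end reads. The authors deposited whole-number counts per gene symbol for the 8-week libraries; without stating roles, the submitters' processing notes list FastQC 0.11.4, HISAT2 2.0.4, edgeR 3.30.3, featureCounts 1.6.0 and the builds GRCm38 and mm10. Not given in the sources used here are the annotation release, the strand setting and how reads with more than 1 alignment were counted, so reads of related genes could be split.

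Of 54132 rows, 24 carry a number in place of a symbol (0.115% to 0.132% of a library's counts) and were left out. The main test was edgeR 4.0.16 quasi-likelihood in R 4.3.3 with limma 3.58.1. The model held genotype alone; scaling was TMM, filterByExpr left 16051 genes, and two-sided p-values were adjusted over them by Benjamini-Hochberg, with a threshold of 0.05. At these depths a CPM of 1 is about 20 to 25 reads. Fold changes are cKO over control; a standard error is the log2 fold change over the square root of F. Positions and union exon lengths are from GENCODE M21 (GRCm38), which held 98.1% of symbols; promoters are from RefSeq. The script was tested on simulated counts. Libraries of 1 genotype differed by a chi-square of 7.96 to 35.0 per degree of freedom, so none were duplicates.

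The 9 genes, the pathway and marker lists and the tests were chosen with earlier results of these data known. The named genes are the 9, up to 4 called genes per pathway list by smallest adjusted p, the 2 most similar genes per called gene, and Rbpms; some genes that this rule names are not reported here. The alternatives tried were 3 other scalings (size factors from DESeq2 1.42.0, upper quartiles, total counts), 2 filters, the DESeq2 test, limma-voom, robust dispersions, sex as covariate, males only and each library left out. A test of sex by genotype was chosen after seeing the data.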

Additional observations from a re-analysis of the deposited data

Results flagged for a closer look

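In 7 of 108 groups of 4 libraries checked over the named genes, 1 library lay far from the other 3 by the Dixon test of its gap to the nearest of them; chance gives about 1 in 20 groups. Adrb1 measured 35.0 CPM in control replicate 1, against 26.6 to 27.2 CPM in the other controls. Adcy9 measured 29.8 CPM in cKO replicate 3, against 33.7 to 34.1 CPM in the other cKO libraries. Gnao1 measured 136 CPM in cKO replicate 3, against 119 to 120.3 CPM in the other cKO libraries. Gng2 measured 8.03 CPM in cKO replicate 3, against 10.0 to 10.3 CPM in the other cKO libraries. Pkia measured 462 CPM in control replicate 3, against 356 to 370.2 CPM in the other controls. Popdc2 measured 329 CPM in cKO replicate 1, against 354 to 359 CPM in the other cKO libraries. Epb41l4a measured 7.40 CPM in cKO replicate 3, against 12.3 to 13.0 CPM in the other cKO libraries. Of these genes Adrb1 is a receptor of the set described, and it kept its call without that library. Of the 5 libraries set apart among cKO values, 4 are the female library (replicate 3) and 1 is a male. Among control values, that of Pkia is from the female library (replicate 3) and that of Adrb1 from a male. The part of sex in these values was not tested.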

How the results depend on the processing

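Adra1a, Adra1b, Adra1d, Adrb1, Adcy5 and Grk5 kept their direction and their call under all 18 alternatives. Their log2 fold changes ran over -1.63 to -1.24, -0.88 to -0.63, -1.17 to -0.87, -0.72 to -0.57, -0.47 to -0.32 and 0.87 to 1.19 in that order, and the highest adjusted p, for Adra1d, was 0.0466. Arrb1 (0.28 to 0.47) was called under 17 of 18. Adcy6 (-0.34 to -0.17) was called under 2 of 18 and Arrb2 (0.12 to 0.32) under 0; both kept their direction. With 1 library left out, 1 to 2 of the 9 genes were called higher and 5 lower in each fit; 10 to 13 other pathway genes were higher and 26 to 31 lower; and over all genes 1129 to 1458 were higher and 1093 to 1418 lower, against 1548 and 1547 with all libraries. With total counts as the only scaling, 1021 genes were lower, and the cause was not tested beyond the change of scale itself. None of the 9 genes reversed its direction under any alternative. No paired analysis was possible because the labels give no numbers or animals shared between genotypes. Adra1d, with 22 to 67 reads per library, is the member most limited by depth.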
